A study of Mus musculus with 24 samples.

Results

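The genes described here are 10 members of the injury cytokine and gp130 signalling system: the receptor subunits *Osmr*, *Il6st* and *Il6ra*, the transducer *Stat3*, its feedback inhibitor *Socs3*, the ligand *Cntf*, and *Il1b*, *Il1r1*, *Tnfrsf1a* and *Tgfb1* from the interleukin-1, tumour necrosis factor and TGF-beta systems. They were chosen by name, and all 10 were found among the 22274 genes of the deposited table. RNA had been sequenced from the brains of male C57BL/6J mice whose pituitary stalk, the link between hypothalamus and pituitary, had been destroyed by current from a stereotaxically placed blade (electrical lesion, PEL). The hypothalamus, dissected to contain the supraoptic and paraventricular nuclei, was sampled in Sham animals and at day 3 (PEL_3d) or day 10 (PEL_10d) of the lesion, each also with growth hormone (Sham_GH, PEL_3d_GH, PEL_10d_GH). The hippocampus was sampled without growth hormone, in Sham (HIP_Sham) and at day 10 (HIP_PEL_10d). Each of the 8 groups had 3 libraries. Sham libraries were labelled day 0, so the time since surgery was not matched between Sham and PEL, and the dose and schedule of growth hormone are not given in the sources used here. The ages of the mice, and whether the libraries of a group came from separate animals, are not given either, so the p-values measure only the spread between these libraries, which may be technical.

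Interleukin-6 family cytokines, among them oncostatin M, leukaemia inhibitory factor and ciliary neurotrophic factor, signal through receptor complexes that contain gp130, the product of *Il6st*. The bound receptor activates Janus kinases, which phosphorylate STAT3, and STAT3 switches on target genes that include *Socs3*, whose product shuts the receptor off. In the injured brain this pathway is known for its role in reactive astrocytes, while interleukin-1, tumour necrosis factor and TGF-beta 1 are produced largely by microglia and infiltrating macrophages.

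Total counts ranged from 15095267 to 17973494 per library. The library labelled Sham 1 held 4 counts of *Avp* and 12 of *Oxt*, the neuropeptide genes that mark these nuclei, with 92.2 FPKM of the hippocampal gene *Neurod6*. The library labelled HIP_Sham 1 held 139 FPKM of *Avp* and 0.43 FPKM of *Neurod6*. Both go against their labelled tissue and were left out of the fits below, which leaves Sham and HIP_Sham with 2 libraries each, and values with them included are given beside the results that turn on them. For HIP_Sham 3 the tissue label reads hypothalamus while the title reads hippocampus, and the title was followed; its 8 hippocampal markers summed to 275.7 FPKM, between the 232.6 and 316.1 FPKM of the other hippocampal libraries that were kept. In 1 library of PEL_10d_GH the pituitary and arcuate hormone gene *Pomc* reached 5479 FPKM, which lifted the summed hypothalamic markers of that group to 6644 FPKM at most. FPKM values are the fragments of a gene scaled to its length and to the size of the library, so that levels can be set side by side between genes, whereas log2 fold changes come from edgeR's quasi-likelihood test on the counts, with Benjamini-Hochberg adjustment over all genes tested and a threshold of 0.05.

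In the unlesioned hypothalamus the signalling parts shared by many ligands were the most abundant. *Il6st* had 33.3 FPKM and *Stat3* 22.8 FPKM as the mean of the 2 Sham libraries, followed by *Tnfrsf1a* at 6.58 FPKM and *Tgfb1* at 2.56 FPKM. *Socs3*, *Cntf*, *Il6ra*, *Osmr* and *Il1r1* lay between 0.93 and 1.66 FPKM, and *Il1b* at 0.0955 FPKM. The ranges of *Cntf* (1.11 to 1.43 FPKM) and *Il6ra* (1.10 to 1.20 FPKM) overlapped, as did those of *Osmr* (0.923 to 0.968 FPKM) and *Il1r1* (0.891 to 0.969 FPKM), so the order within these pairs is not larger than the spread.

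**Figure D1:**
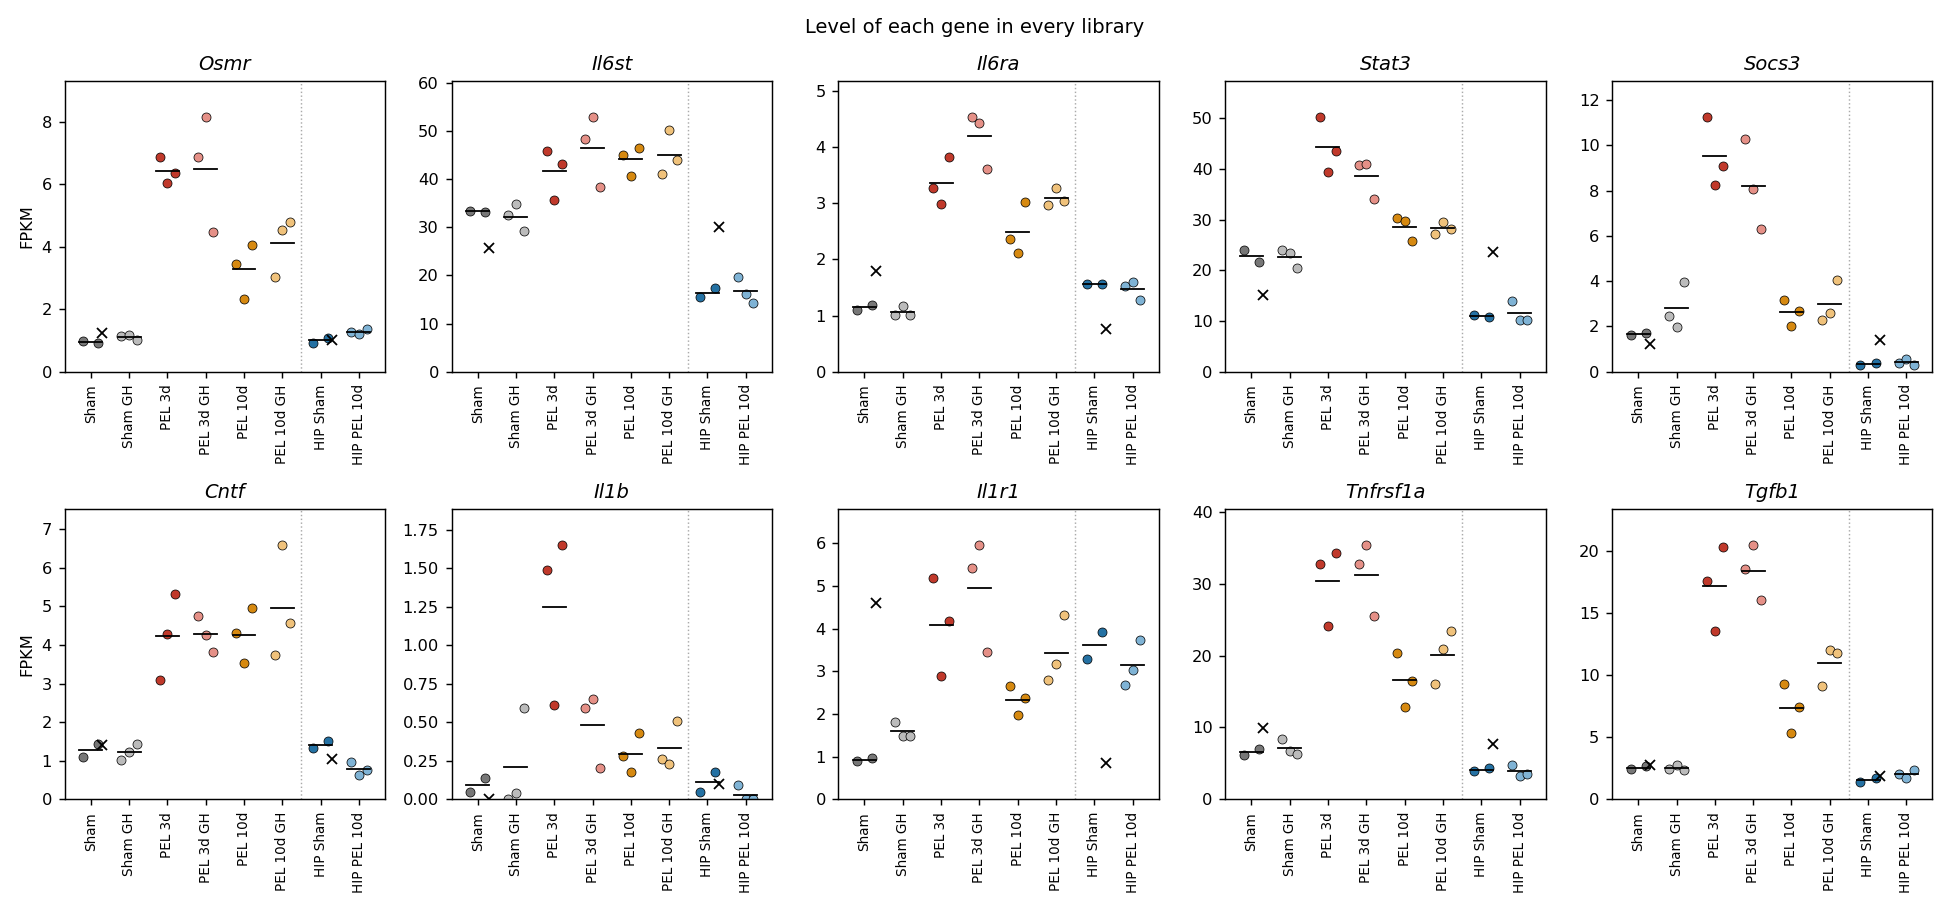
FPKM (linear y axis, from 0) of the 10 genes in every library of the 8 groups on the x axis. Points are libraries, horizontal lines are group means, and crosses are the libraries labelled Sham 1 and HIP_Sham 1, which do not enter the means. The PEL_3d points lie above the Sham points in all 10 panels, and in the panels of *Osmr* and *Tgfb1* the hippocampal points of both groups stay near the hypothalamic Sham level.

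At day 3 all 10 members were higher in PEL_3d than in Sham. Of the 14905 genes tested, 22.2% were higher and 18.2% lower, and the median log2 fold change was 2.15 over the members and -0.01 over all genes tested. The largest rises with many counts were those of *Osmr*, *Tgfb1*, *Socs3*, *Tnfrsf1a* and *Il1r1*, and the smallest was that of *Il6st*. With the library labelled Sham 1 included, 8 members passed, since *Il6st* (adjusted p = 0.125) and *Il1r1* (adjusted p = 0.499) were lost. In that fit 10.4% of all genes tested were higher. The log2 fold changes were then 2.63 for *Osmr*, 0.40 for *Il6st*, 1.12 for *Il6ra*, 1.08 for *Stat3*, 2.62 for *Socs3*, 1.65 for *Cntf*, 4.15 for *Il1b*, 0.86 for *Il1r1*, 1.95 for *Tnfrsf1a* and 2.72 for *Tgfb1*.

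Among the members, the gp130 partners *Osmr* and *Il6ra* had larger fold changes than *Il6st*, the gene of gp130 itself. Partners of gp130 outside the members are not compared here. *Osmr*, the receptor subunit that pairs with gp130 for oncostatin M, had 0.968 and 0.923 FPKM in Sham 2 and 3 and 6.89, 6.05 and 6.38 FPKM in the PEL_3d libraries. The lowest lesioned library was thus several times above the highest Sham library, and the library labelled Sham 1, at 1.23 FPKM, was also below every lesioned one. The rise was 6.95-fold, with a log2 fold change of 2.80 ± 0.12 (SE, adjusted p = 1.03e-07). *Il6ra*, the receptor that binds interleukin-6 itself, went from 1.10 and 1.20 FPKM to 3.26, 2.99 and 3.82 FPKM. Its groups did not overlap either, although the library labelled Sham 1 stood higher than the other Sham libraries at 1.79 FPKM, and the log2 fold change was 1.35 ± 0.15 (SE, adjusted p = 5.71e-05). *Il6st* had 33.4 and 33.1 FPKM in Sham and 45.8, 35.7 and 43.2 FPKM in PEL_3d. Its log2 fold change was 0.29 ± 0.09 (SE, adjusted p = 0.0276), and this small call depended on single libraries: without Sham 2, Sham 3, PEL_3d 1 or PEL_3d 3 in turn the adjusted p was 0.121, 0.178, 0.0815 and 0.0836. In 1 fit over all hypothalamic groups *Il6st* did not pass either (0.30 ± 0.13, adjusted p = 0.0745).

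The transducer and its inhibitor both rose. *Stat3* had 24.0 and 21.6 FPKM in Sham and 50.2, 39.5 and 43.5 FPKM in PEL_3d, a log2 fold change of 0.92 ± 0.09 (SE, adjusted p = 3.41e-05). *Socs3*, which encodes the suppressor that STAT3 induces against its own receptor, had 1.61 and 1.71 FPKM in Sham and 11.2, 8.27 and 9.09 FPKM in PEL_3d. The groups of both genes were well apart, and *Socs3* rose by 2.50 ± 0.17 on the log2 scale (SE, adjusted p = 1.85e-06).

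The promoters of the members were searched for 3 short motifs, and those of *Socs3*, *Tnfrsf1a* and *Osmr* are shown as 3 of the large rises that hold a match to a STAT or AP-1 type core. The sequences are from RefSeq on GRCm38.p6, from 250 bases before to 50 bases after the annotated start, written 5′ to 3′ on the strand of the gene. Capitals mark TTCNNNGAA, the core to which STAT proteins bind, in the first pair, and TGANTCA, the AP-1 type core, in the last.
Socs3 (minus strand, chr11:117969317-117969616): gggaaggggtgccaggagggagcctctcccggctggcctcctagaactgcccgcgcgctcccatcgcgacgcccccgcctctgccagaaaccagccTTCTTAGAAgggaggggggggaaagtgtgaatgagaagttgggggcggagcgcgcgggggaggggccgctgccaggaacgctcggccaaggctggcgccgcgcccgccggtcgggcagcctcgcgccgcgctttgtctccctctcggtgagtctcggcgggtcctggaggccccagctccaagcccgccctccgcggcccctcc
Tnfrsf1a (plus strand, chr6:125349473-125349772): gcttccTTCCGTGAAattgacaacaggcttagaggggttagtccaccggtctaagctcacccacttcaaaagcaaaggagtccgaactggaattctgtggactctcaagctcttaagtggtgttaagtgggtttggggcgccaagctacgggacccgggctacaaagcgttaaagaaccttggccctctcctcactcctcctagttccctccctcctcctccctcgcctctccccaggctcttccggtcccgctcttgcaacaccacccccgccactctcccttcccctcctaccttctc
Osmr (minus strand, chr15:6874264-6874563): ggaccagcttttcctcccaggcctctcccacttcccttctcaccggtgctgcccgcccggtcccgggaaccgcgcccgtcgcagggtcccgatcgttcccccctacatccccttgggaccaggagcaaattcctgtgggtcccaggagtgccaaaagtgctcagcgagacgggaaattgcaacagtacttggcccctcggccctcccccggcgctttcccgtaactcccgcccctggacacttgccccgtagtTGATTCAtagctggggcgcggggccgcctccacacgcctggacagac
The match in *Socs3*, TTCTTAGAA, starts 154 bases before the annotated start, and that in *Tnfrsf1a*, TTCCGTGAA, 244 bases before it. On either strand, TTCNNNGAA was found in 2 of the 10 members and in 8.3% of 32851 promoters of the same length. TGANTCA was found in *Osmr* and *Cntf* and in 7.81% of promoters, and the kappaB consensus in *Il1r1* alone and in 4.51% of promoters. *Il1r1* has 2 promoters, and the match lies at chr1:40266336-40266635 and not at chr1:40224830-40225129. Members were counted once per gene, whereas the percentages count promoters. The matches are letters in a window and say nothing of binding.

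*Cntf*, which encodes ciliary neurotrophic factor, had 1.11 and 1.43 FPKM in Sham and 3.08, 4.28 and 5.33 FPKM in PEL_3d, with 18 and 24 counts against 54, 72 and 92. Its log2 fold change was 1.71 ± 0.33 (SE, adjusted p = 0.00215). *Cntf* (chr19:12763660-12765632, minus strand) shares 847 of its 1073 annotated exonic bases with *Zfp91* on the same strand, so reads of the 2 genes may be split between them and the value is uncertain. *Zfp91*, named after its values were seen, had a log2 fold change of 0.09 ± 0.06 (SE, adjusted p = 0.288), so the rise was seen in the counts assigned to *Cntf*. In PEL_3d_GH against Sham_GH *Zfp91* was called higher, at 0.19 ± 0.07 (SE, edgeR adjusted p = 0.0352) beside 1.76 ± 0.23 for *Cntf*.

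The other gp130 ligands named here had few counts. Cardiotrophin-1 (*Ctf1*), named after its values were seen, had 1.52 and 1.23 FPKM in Sham 2 and 3 and 1.27, 0.801 and 1.06 FPKM in PEL_3d, with a log2 fold change of -0.36 ± 0.34 (SE, adjusted p = 0.432). Its level in Sham was thus near that of *Cntf*, and its groups overlapped. Oncostatin M (*Osm*) had 1 and 2 counts in Sham 2 and 3 and 26, 8 and 26 in PEL_3d, a ratio of 12.8 with a 95% counting interval of 4.16 to 63.6. *Il6* had at most 1 count in a Sham library and 8, 2 and 1 counts in PEL_3d, with an interval of the ratio from 0.766 to 32.6, so a difference was not detectable at this depth. *Lif* had 16 and 15 counts against 40, 37 and 40, *Il11* 5 and 7 against 38, 21 and 30, and *Clcf1* 6 and 15 against 51.89, 73 and 44. These counting intervals cover counting error only.

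**Figure D2:**
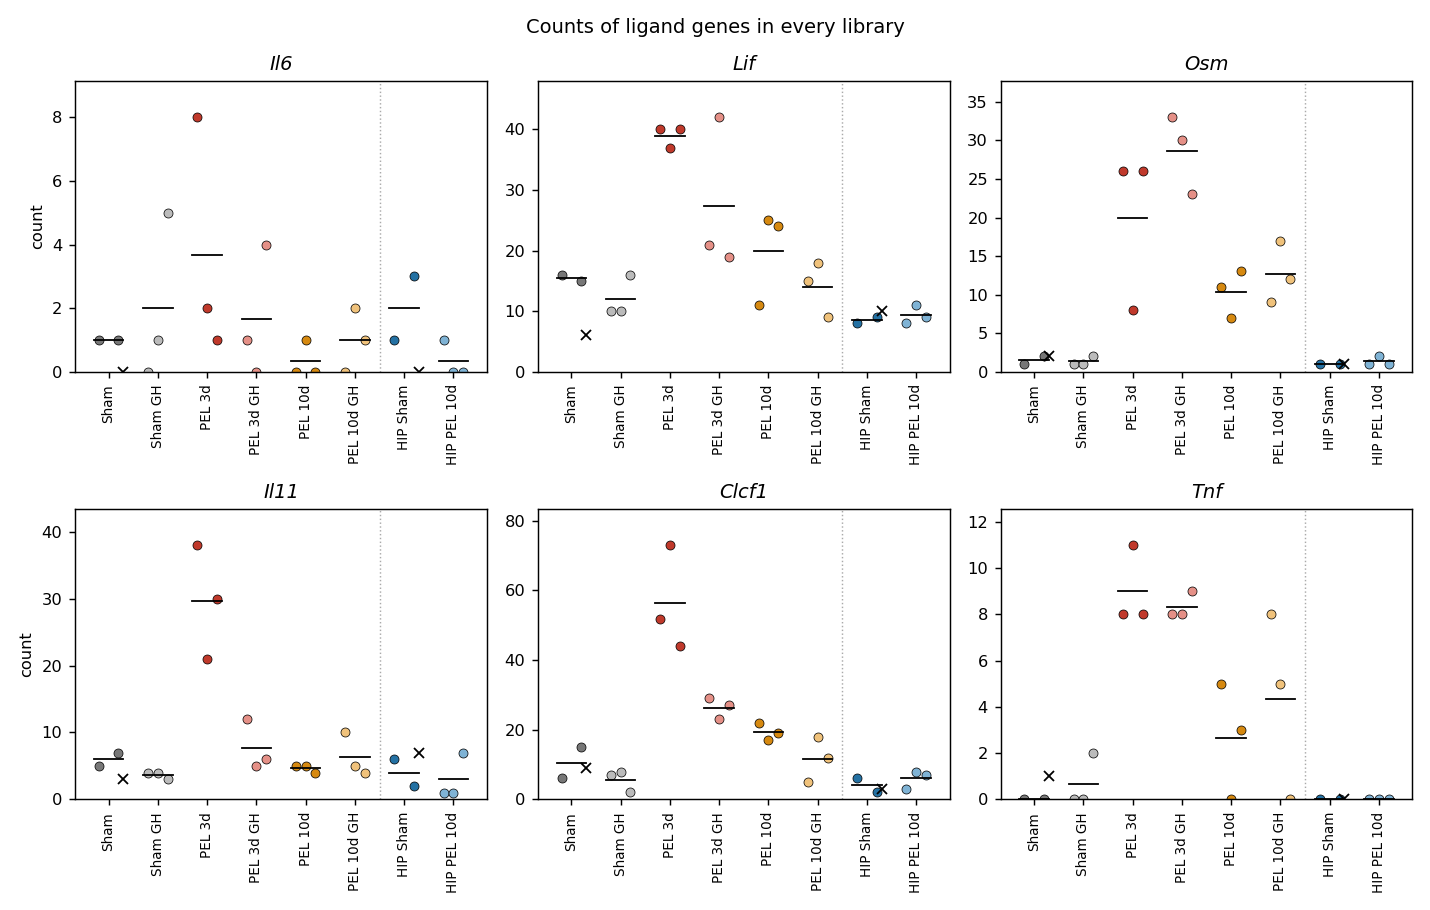
Counts (linear y axis, from 0) of the ligand genes *Il6*, *Lif*, *Osm*, *Il11*, *Clcf1* and *Tnf* in every library of the 8 groups, drawn as in the plot of the members' levels. *Il6* and *Tnf* stay at or below 11 counts in all libraries, and the PEL_3d points of *Osm*, *Lif*, *Il11* and *Clcf1* lie above both Sham libraries.

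*Il1b*, the inducible interleukin-1 cytokine of activated myeloid cells, had 1 and 3 counts in Sham 2 and 3 and 33, 13 and 36 counts in PEL_3d. The summed counts of 82 against 4 give a ratio of 13.1 with a 95% counting interval of 4.92 to 49.2, and the log2 fold change was 3.61 ± 0.71 (SE, adjusted p = 0.00245). With so few counts its size moved with single libraries, to 3.08 without Sham 2 and 4.50 without Sham 3, and the highest adjusted p with 1 library left out was 0.0440. Its receptor gene *Il1r1* had 0.891 and 0.969 FPKM in Sham and 5.18, 2.89 and 4.17 FPKM in PEL_3d, and its log2 fold change was 2.12 ± 0.24 (SE, adjusted p = 7.30e-05). The library labelled Sham 1, which held the hippocampal gene *Neurod6*, had 4.60 FPKM of *Il1r1*. This was within the range of the lesioned libraries, and the hippocampal libraries that were kept had 2.68 to 3.92 FPKM. With Sham 1 the log2 fold change was 0.86 ± 0.70 (SE).

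*Tnfrsf1a*, the death domain receptor for tumour necrosis factor, had 6.21 and 6.96 FPKM in Sham and 32.7, 24.2 and 34.2 FPKM in PEL_3d. It rose 4.52-fold, by 2.18 ± 0.15 on the log2 scale (SE, adjusted p = 2.09e-06). *Tnf* itself had 0 counts in both Sham libraries and 8, 11 and 8 in PEL_3d. *Tgfb1*, which encodes the latent cytokine TGF-beta 1, had 2.47 and 2.65 FPKM in Sham and 17.6, 13.6 and 20.3 FPKM in PEL_3d. The lesioned libraries of both *Tnfrsf1a* and *Tgfb1* lay far above the Sham libraries, Sham 1 included (9.96 and 2.73 FPKM), and the log2 fold change of *Tgfb1* was 2.79 ± 0.19 (SE, adjusted p = 1.77e-06).

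**Figure D3:**
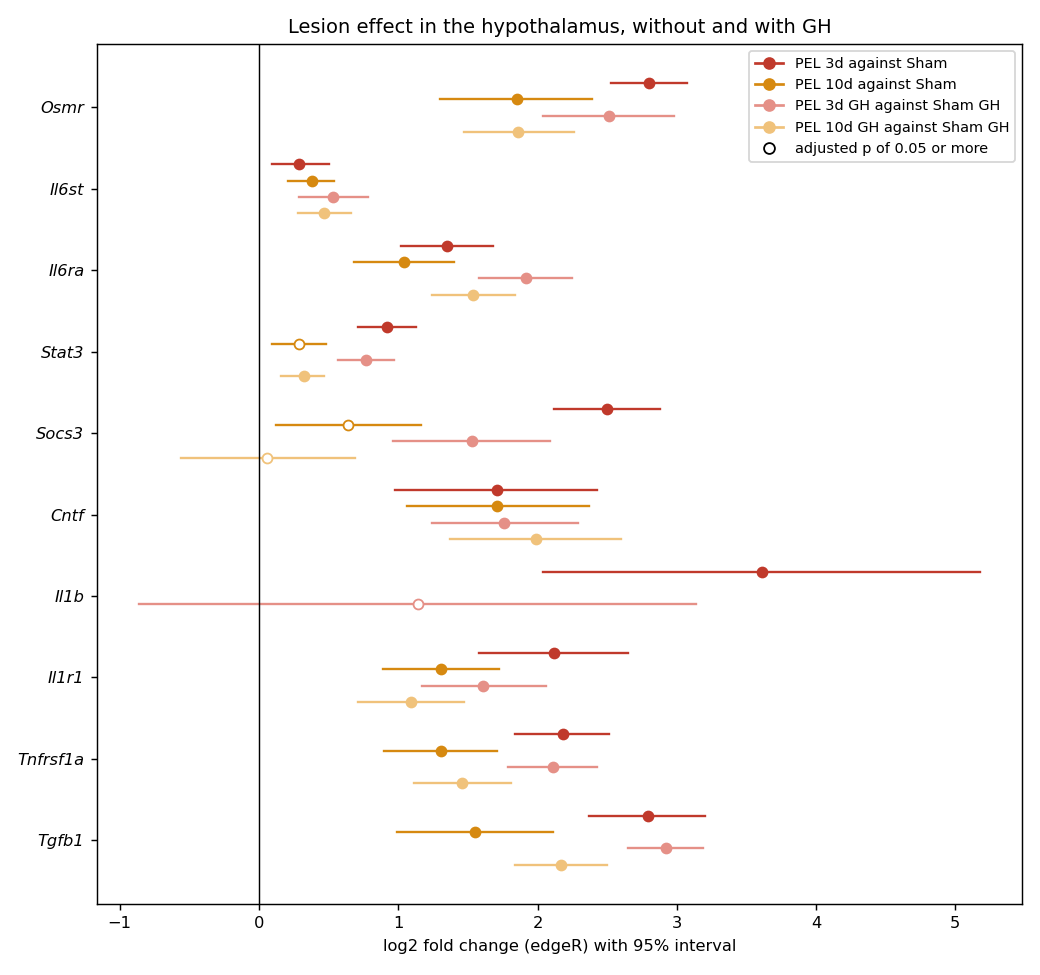
Log2 fold changes from edgeR with 95% intervals (x axis) for each gene (y axis) in the 4 comparisons of lesioned with unlesioned hypothalamus. Open circles have an adjusted p of 0.05 or more. All filled circles lie to the right of 0; *Il1b* has no day 10 values because it did not pass the filter on low counts there, and *Socs3* has an open circle at day 10 with and without growth hormone.

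Other genes of the pathways, from lists written from general knowledge, are given as counts called at day 3, beside the 22.2% higher and 18.2% lower of all genes tested. Of the gp130 cytokines, receptors and kinases 9 of 18 tested were higher and 0 lower, among them the ligand gene *Clcf1* (log2 fold change 2.34 ± 0.43) and the kinase *Tyk2* (1.02 ± 0.15). With the library labelled Sham 1 included, when 10.4% of all genes tested were higher, 4 of 17 were higher. Of the STAT3-responsive genes 11 of 12 were higher, including the tissue inhibitor of metalloproteinases *Timp1* (4.82 ± 0.22), the intermediate filament genes *Vim* (3.32 ± 0.07) and *Gfap* (2.75 ± 0.12), and the acute-phase gene *Serpina3n* (2.82 ± 0.09), and 8 of 12 with Sham 1.

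In the interleukin-1 list 10 of 12 genes were higher, with the inflammasome genes *Casp1* (2.76 ± 0.30) and *Pycard* (2.43 ± 0.20) and the adaptors *Myd88* (1.76 ± 0.17) and *Irak4* (1.53 ± 0.21), and 7 of 12 with Sham 1. In the tumour necrosis factor list 10 of 11 were higher, with the second receptor *Tnfrsf1b* (2.63 ± 0.19), the NF-kappaB subunits *Nfkb2* (1.58 ± 0.19) and *Rela* (0.86 ± 0.10), and the kinase *Ripk1* (1.33 ± 0.14), and 6 of 11 with Sham 1. In the TGF-beta list 9 of 16 were higher and 1 lower. *Nrros*, which anchors latent TGF-beta 1 on microglia, changed by 2.70 ± 0.20, the receptor gene *Tgfbr2* by 1.87 ± 0.12 and the activating integrin *Itgav* by 1.38 ± 0.10. With Sham 1 included, 7 of 16 were higher and 0 lower. The counts with Sham 1 in these lists stand beside 10.4% of all genes tested higher in that fit.

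At day 10 most members were still above Sham, at a smaller log2 fold change than at day 3 except for *Cntf* (1.71 at both days) and *Il6st* (0.38 against 0.29). Of the 9 members tested 7 were higher and 0 lower, against 7.97% of all genes higher and 1.43% lower, and the median log2 fold change of the members was 1.31 against -0.01 over all genes. The day 3 and day 10 comparisons share the Sham libraries. The counts of members and of all genes both rested on those controls. With the library labelled Sham 1, 3 members (*Osmr*, *Cntf* and *Tgfb1*) and 1.81% of all genes were higher, without Sham 3 it was 3 members and 1.89%, and without Sham 2 it was 0 members and 1.28%, where the adjusted p of *Osmr* was 0.0602. The log2 fold change of *Osmr* was 1.81 without Sham 2 against 1.85 with it, and the median of the members was 1.23 without Sham 2, 1.36 without Sham 3 and 0.81 with Sham 1. With 1 Sham library left the fit assumes that it varies like the other libraries.

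*Osmr* had 3.45, 2.33 and 4.06 FPKM in PEL_10d, above all 3 Sham libraries, with a log2 fold change of 1.85 ± 0.24 (SE, adjusted p = 0.00290). *Cntf* had 4.31, 3.52 and 4.96 FPKM and a log2 fold change of 1.71 ± 0.29 (SE, adjusted p = 0.00798), and *Tgfb1* 9.32, 5.33 and 7.41 FPKM and 1.55 ± 0.25 (SE, adjusted p = 0.00640). These were also the members that passed with the library labelled Sham 1 included, at adjusted p = 0.0439, 0.0371 and 0.0469. *Cntf* and *Tgfb1* were not among those that passed without Sham 3. *Il6ra* (1.04 ± 0.16), *Il1r1* (1.31 ± 0.18), *Tnfrsf1a* (1.31 ± 0.18) and *Il6st* (0.38 ± 0.07) passed as well, *Il6st* not in 1 fit over all hypothalamic groups (0.39 ± 0.13, adjusted p = 0.0652). With Sham 1 the log2 fold change was 0.81 for *Il6ra* (adjusted p = 0.207), 0.04 for *Il1r1* (0.994), 1.07 for *Tnfrsf1a* (0.128) and 0.48 for *Il6st* (0.153), so that of *Il1r1* vanished while the others kept their direction.

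*Stat3* and *Socs3*, the intracellular switch and its brake, did not pass in PEL_10d against Sham. *Stat3* had 30.3, 29.6 and 25.7 FPKM against 24.0 and 21.6 in Sham (log2 fold change 0.29 ± 0.09, adjusted p = 0.0786). *Socs3* had 3.15, 2.02 and 2.70 FPKM against 1.61 and 1.71 (0.64 ± 0.23, adjusted p = 0.125). All 3 PEL_10d libraries lay above Sham 2 and 3 for either gene, although the test across all genes was missed. Such separation also arises in unchanged genes with so few libraries, so it is not read as a change. *Stat3* passed without PEL_10d 3 (adjusted p = 0.0307) and by DESeq2 (adjusted p = 0.0457), and *Socs3* without PEL_10d 2 (adjusted p = 0.0494). With Sham 1 included the log2 fold changes were 0.44 for *Stat3* (adjusted p = 0.385) and 0.75 for *Socs3* (adjusted p = 0.265). *Il1b* had 6, 4 and 9 counts, and the summed 19 against 4 counts give a ratio of 3.05 with a counting interval of 1.01 to 12.3.

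At day 10, when 7.97% of all genes tested were higher against 22.2% at day 3, the pathway lists also held fewer called genes. The gp130 list had 1 higher of 17 tested and the STAT3-responsive list 6 of 12, led by *Gfap* (1.86 ± 0.14), *Serpina3n* (1.37 ± 0.14), *Vim* (1.36 ± 0.16) and the NF-kappaB regulator *Bcl3* (1.89 ± 0.36). The interleukin-1 list had 5 of 11, including *Il1a* (2.63 ± 0.41) and *Casp1* (2.52 ± 0.40). The tumour necrosis factor list had 6 of 11, including *Tnfrsf1b* (1.83 ± 0.26), and the TGF-beta list 4 of 16, including *Nrros* (1.74 ± 0.31) and both receptor genes *Tgfbr2* (1.31 ± 0.12) and *Tgfbr1* (0.69 ± 0.13). No listed gene was called lower. With the library labelled Sham 1, when 1.81% of all genes tested were higher, the numbers higher in this order were 1 of 16, 4 of 11, 2 of 10, 1 of 11 and 0 of 16.

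The direct comparison of the 2 days does not use the Sham libraries. From PEL_3d to PEL_10d 7 of 10 members were lower, against 12.2% of all genes lower and 6.33% higher, and the median log2 difference of the members was -0.83 against 0.01 over all genes. *Socs3* fell by 1.86 ± 0.17 on the log2 scale (SE, adjusted p = 1.23e-04), from at least 8.27 FPKM in every day 3 library to at most 3.15 FPKM at day 10. *Tgfb1* fell by 1.23 ± 0.20, *Osmr* by 0.94 ± 0.17, *Tnfrsf1a* by 0.86 ± 0.17 and *Stat3* by 0.62 ± 0.09, each without overlap between the days. *Il1b* (-2.07 ± 0.50, adjusted p = 0.0201) and *Il1r1* (-0.80 ± 0.20, adjusted p = 0.0247) were lost when single libraries were left out: both without PEL_3d 1 (0.0730 and 0.0881), PEL_3d 3 (0.0869 and 0.0817) or PEL_10d 2 (0.0765 and 0.0843), *Il1b* also without PEL_10d 1 and *Il1r1* without PEL_10d 3 (0.0564).

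*Cntf*, *Il6st* and *Il6ra* did not pass between the days. The log2 difference of *Cntf* was 0.01 with a 95% interval of -0.53 to 0.56, that of *Il6st* 0.09 (-0.12 to 0.30) and that of *Il6ra* -0.30 (-0.59 to -0.01, adjusted p = 0.139). Of the lists, 10 of 12 STAT3-responsive genes, 5 of 18 gp130 genes, 6 of 12 interleukin-1 genes, 2 of 11 tumour necrosis factor genes and 7 of 16 TGF-beta genes were lower at day 10 than at day 3, and 0 were higher.

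Markers of several cell types also differed between Sham and the lesioned groups. The summed FPKM of 10 microglial markers was 236 to 240 in Sham, 1405 to 1645 in PEL_3d and 713 to 891 in PEL_10d, with 10 of 10 markers higher in every PEL_3d library than in Sham and 9 of 10 in PEL_10d. Border macrophage markers summed to 4.20 to 4.97, 34.6 to 71.9 and 6.60 to 19.0 FPKM, with 6 of 6 and 2 of 6 higher. Blood leukocyte markers summed to 1.75 to 5.07, 11.5 to 34.1 and 6.36 to 14.6 FPKM, with 6 of 8 higher at each day, and fibroblast markers to 42.7 to 46.8, 94.9 to 193.7 and 81.7 to 178.7 FPKM, with 4 of 4. Endothelial markers summed to 91.0 to 92.3, 130.2 to 144.9 and 108.8 to 126.3 FPKM, with 5 of 5 and 4 of 5 higher. Astrocyte markers summed to 829 to 831, 902 to 980 and 888 to 924 FPKM, a sum in which markers moved both ways: 4 of 6 were higher and 2 lower at day 3, with *Aqp4* at a mean of 42.8 FPKM in Sham and 104.8 in PEL_3d and *Slc1a3* at 191.7 and 152.1, and 2 were higher and 1 lower at day 10. Hypothalamic neuron markers summed to 1337 to 1384, 879 to 1001 and 955 to 1197 FPKM, with 9 of 12 lower at day 3 and 3 of 12 at day 10. From PEL_3d to PEL_10d, 9 of 10 microglial, 4 of 6 border macrophage and 2 of 5 endothelial markers were lower without overlap. Of the fibroblast markers 0 of 4 were lower. Blood leukocyte markers gave 2 higher and 1 lower, astrocyte markers 2 and 2, and hypothalamic markers 2 of 12 higher. No marker of these 7 lists was at 0 throughout Sham or a lesioned group. No share of all genes apart between groups is given beside these counts, so small ones are not read as changes. The part of these cell types in the members' values was not tested, and in tissue samples more cells of a type and more RNA per cell cannot be told apart.

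**Figure D4:**
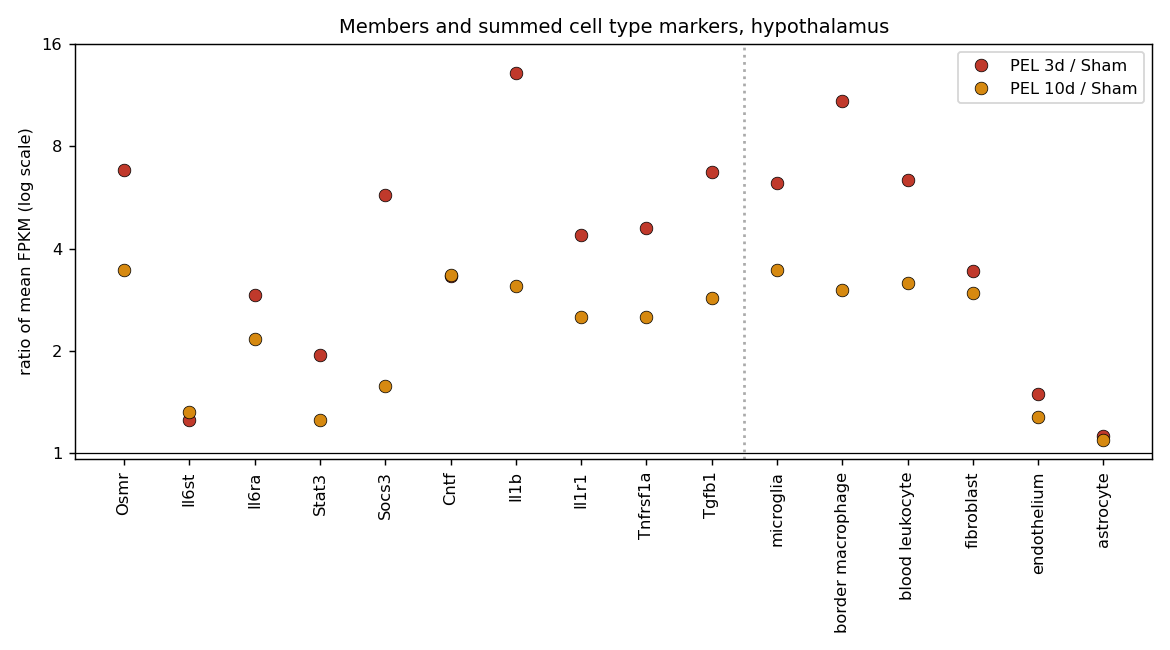
Ratio of mean FPKM in PEL_3d (red) and PEL_10d (orange) to the mean of Sham 2 and 3 on a log scale (y axis), for the 10 members to the left of the dotted line and for the summed markers of 6 cell types to the right (x axis). The ratios were 6.81 and 3.47 for *Osmr* and 6.70 and 2.87 for *Tgfb1*, beside 6.24 and 3.47 for the microglial, 6.38 and 3.17 for the blood leukocyte, 10.9 and 3.03 for the border macrophage and 3.44 and 2.96 for the fibroblast sum. *Cntf* has nearly the same ratio on both days, and *Il6st* (1.25 and 1.32) lies by the endothelial (1.49 and 1.28) and astrocyte sums (1.12 and 1.09).

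Across the 17 hypothalamic libraries the genes whose log2(FPKM + 0.1) pattern was most like that of a member differed between members. The closest to *Osmr* were *Cebpa*, *C3ar1* and *Ms4a6d* (Pearson r 0.990, 0.988 and 0.988), to *Tgfb1* *Ppp1r18*, *Ctsz* and *Arpc1b* (0.996, 0.994 and 0.993), to *Cntf* *Cst7*, *Clec7a* and *Cd48* (0.977, 0.968 and 0.968), and to *Socs3* *Dysf*, *Gpd1* and *Eci2* (0.964, 0.964 and 0.957). Among the members, *Osmr*, *Tnfrsf1a* and *Tgfb1* had r of 0.982 to 0.990 with each other, whereas *Socs3* and *Il6st* had r of 0.425. The points share the lesion contrast and the libraries, so these values describe likeness of pattern only.

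With growth hormone the lesion response of the members was again seen, against controls that include no doubted library. In PEL_3d_GH against Sham_GH 9 of 10 members were higher (26.9% of all genes), and in PEL_10d_GH against Sham_GH 8 of 9 tested (17.7% of all genes), a count that was 8 whichever single library was left out. *Osmr* had 1.14, 1.19 and 1.03 FPKM in Sham_GH, 6.86, 8.15 and 4.48 FPKM in PEL_3d_GH and 3.03, 4.53 and 4.78 FPKM in PEL_10d_GH. *Tgfb1* had 2.44, 2.73 and 2.39 FPKM, then 18.5, 20.5 and 16.1 FPKM, then 9.17, 12.1 and 11.8 FPKM. Neither gene overlapped between Sham_GH and the lesioned groups, with log2 fold changes of 2.51 ± 0.21 and 1.86 ± 0.18 for *Osmr* and 2.92 ± 0.12 and 2.17 ± 0.15 for *Tgfb1* at the 2 days.

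*Stat3*, which had missed at day 10 without growth hormone, passed in PEL_10d_GH against Sham_GH at a similar log2 fold change (0.32 ± 0.07, adjusted p = 0.00665). *Socs3* at day 10 and *Il1b* at day 3 were the exceptions. *Socs3* had 2.48, 1.95 and 3.98 FPKM in Sham_GH, 10.3, 8.06 and 6.32 FPKM in PEL_3d_GH and 2.29, 2.60 and 4.04 FPKM in PEL_10d_GH, so that the day 10 libraries overlapped the controls (log2 fold change 0.06 ± 0.28, adjusted p = 0.885). *Il1b* had 0, 1 and 13 counts in Sham_GH and 13, 14 and 5 counts in PEL_3d_GH (1.14 ± 0.90, adjusted p = 0.312). Without Sham_GH 3, the library with 13 counts, its log2 fold change was 4.11 (adjusted p = 0.0160). In these groups the summed microglial markers were 191 to 225 FPKM in Sham_GH, 1500 to 1968 in PEL_3d_GH and 1017 to 1198 in PEL_10d_GH. In the same order, border macrophage markers summed to 3.94 to 5.26, 43.0 to 85.7 and 10.6 to 22.55 FPKM, and blood leukocyte markers to 1.97 to 3.34, 8.37 to 13.7 and 15.9 to 33.4. Fibroblast markers summed to 27.5 to 47.8, 136.8 to 266.5 and 75.6 to 179.15, and astrocyte markers to 871.5 to 903.55, 986.5 to 1036.8 and 977 to 1062. Their part in the members' values was not tested.

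In the edgeR fits reported here, with unpaired libraries and the filter on low counts, and by DESeq2, no member was called in a comparison of growth hormone with no growth hormone. In PEL_3d_GH against PEL_3d 0 of 10 members passed (0.0270% of all genes) and DESeq2 called 0 members. At an unadjusted p under 0.05 there were 2 members, beside 571 genes higher and 435 lower of 14798 tested. The 2 members were *Il6ra* (0.34 ± 0.13, adjusted p = 0.710) and *Il1b* (-1.36 ± 0.49, adjusted p = 0.695). The 95% interval of the log2 difference was -0.36 to 0.45 for *Osmr*, -0.38 to 0.06 for *Stat3*, -0.59 to 0.21 for *Socs3* and -0.21 to 0.44 for *Tgfb1*. Of the gp130 ligands with few counts, *Il11* had 12, 5 and 6 counts in PEL_3d_GH against 38, 21 and 30 in PEL_3d (-1.95 ± 0.41, adjusted p = 0.307). *Clcf1* had 29, 23 and 27 against 51.89, 73 and 44 (-1.12 ± 0.27, adjusted p = 0.437). Both were apart in every library without passing, which unchanged genes can also show with so few libraries. In PEL_10d_GH against PEL_10d 0 of 9 members passed (0% of all genes) and DESeq2 called 0 members. At an unadjusted p under 0.05 there were 2 members, *Il1r1* (0.56 ± 0.18, adjusted p = 0.773) and *Tgfb1* (0.58 ± 0.20, adjusted p = 0.782). Beside them 550 genes were higher and 356 lower of 14763 tested. *Il1r1* had 2.81, 3.18 and 4.31 FPKM in PEL_10d_GH and 2.66, 1.98 and 2.37 FPKM in PEL_10d, which did not overlap. The share of all genes apart in this way is not given. The summed microglial markers (1017 to 1198 against 713 to 891 FPKM) and blood leukocyte markers (15.9 to 33.4 against 6.36 to 14.6 FPKM) were also higher in PEL_10d_GH, and their part in these values was not tested.

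In unlesioned mice, Sham_GH against Sham gave 0 of 9 members (1.09% of all genes) and 0 by DESeq2. At an unadjusted p under 0.05 there were 2 members, beside 1215 genes higher and 972 lower of 14539 tested. *Il1r1* had 1.81, 1.48 and 1.49 FPKM in Sham_GH, above Sham 2 and 3 but below the library labelled Sham 1, with a log2 difference of 0.79 ± 0.18 (SE, adjusted p = 0.0578), and of -0.48 ± 0.69 with Sham 1 included. Without the filter on low counts *Il1r1* passed at the same difference of 0.79 (adjusted p = 0.0231). *Socs3* had a log2 difference of 0.77 ± 0.27 (SE, adjusted p = 0.201), and of 0.88 ± 0.30 with Sham 1 (adjusted p = 0.697). The difference of the lesion effect with and without growth hormone was tested as an interaction. It was called for 0 of 10 members at day 3 (0.0462% of all genes), for 0 of 10 at day 10 (0% of all genes), and for 0 by DESeq2. At day 3, 2 members had an unadjusted p under 0.05, beside 628 genes higher and 966 lower of 15164 tested. At day 10 it was 1 member, beside 676 higher and 690 lower of 15116. The interaction term of *Socs3* at day 3 was -0.98 with a 95% interval of -1.76 to -0.19 (adjusted p = 0.349), and that of *Il6ra* was 0.56 (0.11 to 1.02, adjusted p = 0.354). With Sham 1 they were -1.08 and 0.81 (adjusted p = 0.562 for both).

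In the hippocampus at day 10 no member passed. In HIP_PEL_10d against HIP_Sham 0 of 9 members tested were called (6.15% of all genes) and DESeq2 called 0 members. At an unadjusted p under 0.05 there was 1 member, beside 1664 genes higher and 1807 lower of 14191 tested. *Osmr* had 0.927 and 1.09 FPKM in HIP_Sham 2 and 3 and 1.28, 1.21 and 1.36 FPKM in HIP_PEL_10d, a difference of 0.29 on the log2 scale with a 95% interval of -0.10 to 0.69. *Cntf* had 1.34 and 1.50 FPKM against 0.963, 0.644 and 0.769 FPKM, the single member with an unadjusted p under 0.05 (-0.89 ± 0.34, adjusted p = 0.161). Both genes were apart between the groups in every library that was kept without passing the test across all genes. With so few libraries unchanged genes can also be apart, and the share of all genes apart in this way is not given. With HIP_Sham 1 included the log2 differences were 0.36 for *Osmr* and -0.70 for *Cntf* (adjusted p = 0.509 for both).

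Levels in the 2 unlesioned regions are given side by side, without a test. *Il1r1* stood above the hypothalamic Sham 2 and 3 in the hippocampus, at 3.29 and 3.92 FPKM in HIP_Sham and 2.68, 3.04 and 3.74 FPKM in HIP_PEL_10d. *Il6st* had 15.5 and 17.3 FPKM in HIP_Sham and *Stat3* 11.1 and 10.8 FPKM, below every hypothalamic Sham library that was kept. The library labelled HIP_Sham 1 had 0.858 FPKM of *Il1r1*, 30.0 of *Il6st* and 23.5 of *Stat3*. Choroid plexus markers summed to 4330 to 5426 FPKM in HIP_Sham 2 and 3 and 38.8 to 798.9 FPKM in HIP_PEL_10d, microglial markers to 229 to 231 and 266 to 349 FPKM, and fibroblast markers to 9.58 to 10.2 and 21.3 to 69.1 FPKM. All 6 choroid plexus markers were lower and 7 of 10 microglial markers higher in every HIP_PEL_10d library than in HIP_Sham 2 and 3. Of the fibroblast markers 1 of 4 was higher, *Dcn* at a mean of 5.14 FPKM in HIP_Sham and 36.7 in HIP_PEL_10d, while the means of *Col1a1* (0.799 and 0.669), *Col1a2* (1.74 and 1.42) and *Lum* (2.22 and 1.74) were not. These marker counts also have no share of all genes apart between the groups beside them, so small ones are not read as changes. The part of these cell types in the hippocampal values was not tested.

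The lesion effect at day 10 was larger in the hypothalamus than in the hippocampus for 5 of 9 members by the interaction term, against 6.52% of all genes. The difference of the 2 log2 fold changes was 2.58 ± 0.42 for *Cntf* (adjusted p = 0.00379), 1.53 ± 0.31 for *Osmr* (adjusted p = 0.0114), 1.50 ± 0.25 for *Il1r1* (adjusted p = 0.00426), 1.40 ± 0.28 for *Tnfrsf1a* (adjusted p = 0.00984) and 0.92 ± 0.20 for *Il6ra* (adjusted p = 0.0143). *Tgfb1* was just outside (1.16 ± 0.36, adjusted p = 0.0583) and passed by DESeq2 (adjusted p = 0.0402), and *Stat3* (0.22 ± 0.17) and *Socs3* (0.34 ± 0.45) did not pass. With the libraries labelled Sham 1 and HIP_Sham 1 included only *Cntf* passed (2.34 ± 0.38, adjusted p = 0.0365), when 0.624% of all genes did in this direction, *Il1r1* turned to -0.21 ± 0.96, and *Osmr* (1.30), *Il6ra* (0.41), *Tnfrsf1a* (1.44) and *Tgfb1* (1.12) missed at adjusted p = 0.0942, 0.646, 0.128 and 0.141.

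**Figure D5:**
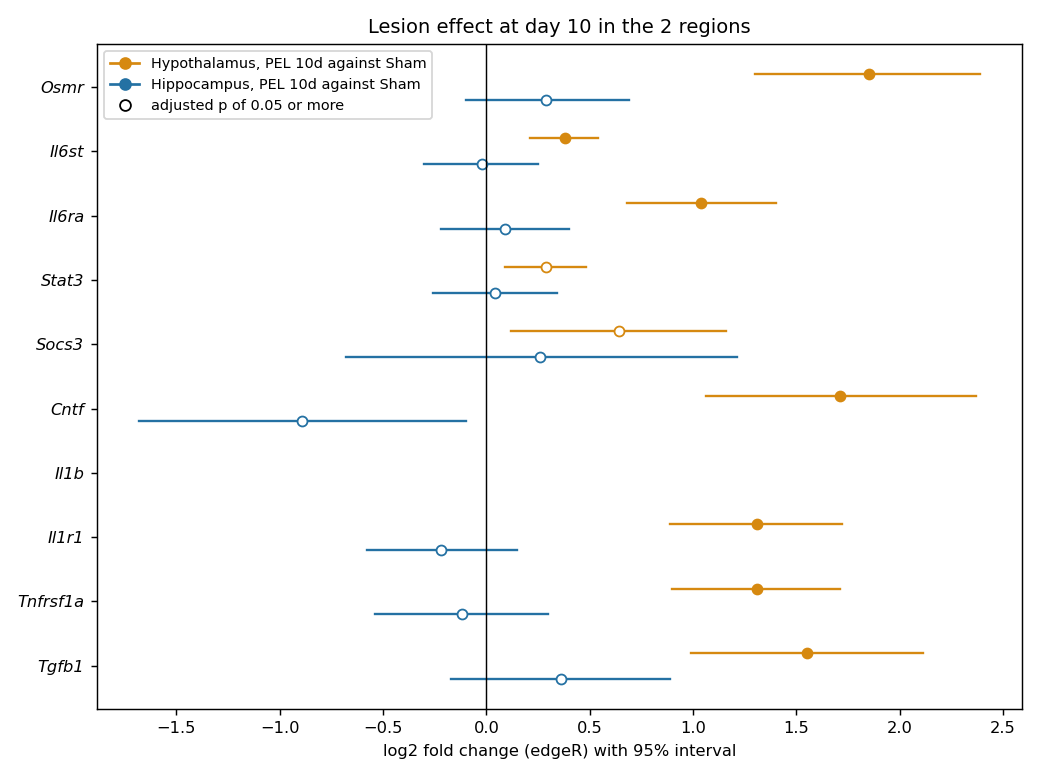
Log2 fold changes of PEL_10d against Sham from edgeR with 95% intervals (x axis) in the hypothalamus (orange) and the hippocampus (blue) for each gene (y axis). Open circles have an adjusted p of 0.05 or more. All hippocampal circles are open and lie between -0.89 and 0.36, and *Il1b* was below the filter on low counts in both regions.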

How the data were processed

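RNA from 24 samples was sequenced after library preparation with the SMARTer mRNA-Seq kit, aligned by the authors with Hisat2 and counted with featureCounts. The submitters' processing notes name GRCm38 and mm10, and the annotation release and strand setting are not given in the sources used here. For every gene and sample the authors deposited estimated counts next to FPKM values in a single table. Of the deposited estimated counts 8.22% were not whole, and all were rounded for the tests. FPKM values, normalized by the authors for length and library size, were used as deposited. Identifiers were matched to symbols for 22219 genes, and positions are those of GENCODE on GRCm38. *Stat3*, *Il6ra* and *Il1b* overlap genes of the other strand by 72, 242 and 25 exonic bases.

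Groups and replicate numbers came from the labels. Comparisons used edgeR 4.0.16 in R 4.3.3 (quasi-likelihood test, TMM, filterByExpr with a minimum count of 10, only the groups compared), and the authors' test, DESeq2 (1.42.0 here), was an alternative with other scalings, filters, samples and a replicate block. *Il1b* did not pass the filter in 6 of 12 comparisons. The steps were tested on simulated data. Intervals are 95% intervals. The members, gene lists and the libraries left out were chosen with earlier results of these data known. From each list the text names up to 4 genes with the smallest adjusted p. Some of these are not reported here. Sequences are from RefSeq. Likeness was computed over genes with a mean FPKM of at least 1.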

Additional observations from a re-analysis of the deposited data

Results flagged for a closer look

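The lesion effect at day 10 differed between the hypothalamus and the hippocampus for 5 members by the test of that difference in edgeR. All 5 were larger in the hypothalamus, as were 6.52% of all genes tested. The differences on the log2 scale were 1.53 for *Osmr*, 0.92 for *Il6ra*, 2.58 for *Cntf*, 1.50 for *Il1r1* and 1.40 for *Tnfrsf1a*. With the libraries labelled Sham 1 and HIP_Sham 1 they were 1.30, 0.41, 2.34, -0.21 and 1.44, and of these only that of *Cntf* passed. In that fit 0.624% of all genes tested passed in this direction.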

How the results depend on the processing

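The members called in PEL_3d against Sham, PEL_10d against PEL_3d and both growth hormone lesion comparisons stayed within 1.5 times of the reported count under every alternative run, and scaling by DESeq2 size factors in edgeR changed no member's call. With the libraries labelled Sham 1 and HIP_Sham 1 included, 3 members passed in PEL_10d against Sham and 1 in the difference between the regions, and the genes called were 1683 in PEL_3d against Sham, 269 in PEL_10d against Sham, 0 in Sham_GH against Sham, 0 in the hippocampus, 0 in the growth hormone interaction at day 3 and 94 in the difference between the regions. DESeq2 called 59, 36 and 256 genes for growth hormone at day 3, at day 10 and in Sham, and 144 and 97 for the interactions at day 3 and day 10. Without the filter on low counts 8 genes were called at day 3 and 359 in Sham for growth hormone, with 1 member (*Il1r1*), and 19 and 12 for the interactions. One fit over all hypothalamic groups gave 9, 2 and 13 genes for growth hormone at day 3, at day 10 and in Sham.

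Samples with the same replicate number did not deviate together (r of -0.352 to 0.298 over 23 pairs, and no comparison had every pair over 0.1). With so few libraries per group this cannot exclude pairing. Pairs between hypothalamus and hippocampus were not checked, and the test of the difference between the regions treats those libraries as independent. With the replicate block, 1, 317 and 1486 genes were called for growth hormone at day 3, for growth hormone in Sham (with 1 member, *Socs3*, at 0.80 and adjusted p = 0.0370) and in the hippocampus, *Il6st* at day 3 missed at adjusted p = 0.0508, and the changes of *Stat3* with growth hormone at day 10, of *Cntf* in Sham_GH and of *Stat3* in the hippocampus turned to 0.001, 0.09 and -0.12.

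Log2 differences also turned sign with Sham 1 and HIP_Sham 1, none of them called except that of *Il1r1* between the regions. In Sham_GH against Sham they became 0.04 for *Il6st*, 0.12 for *Stat3*, -0.48 for *Il1r1* and -0.12 for *Tnfrsf1a*. In the hippocampus they became -0.31 for *Stat3*, -0.64 for *Socs3* and 0.23 for *Il1r1*. For the interactions they became 0.77 for *Il1r1* and 0.17 for *Tnfrsf1a* at day 3, and -0.004 for *Il6st*, -0.12 for *Stat3* and 1.04 for *Il1r1* at day 10, and *Il1r1* between the regions became -0.21. The cause was not tested.

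Leaving out 1 library at a time gave 9 to 10 members and 3394 to 6632 genes in PEL_3d against Sham, 0 to 8 and 205 to 1486 in PEL_10d against Sham, 5 to 7 and 1333 to 2799 between the days, 9 to 10 and 6232 to 8815 in PEL_3d_GH against Sham_GH, and 8 to 8 and 3121 to 5376 in PEL_10d_GH against Sham_GH. For growth hormone it gave 0 members throughout, with 1 to 56 genes at day 3, 0 to 0 at day 10 and 44 to 190 in Sham, and in the hippocampus 0 members and 71 to 1746 genes. Small uncalled log2 differences also turned sign in this way. Their ranges were -0.01 to 0.15 for *Il6st* and -0.17 to 0.22 for *Cntf* between the days, and -0.22 to 0.41 for *Socs3* in PEL_10d_GH against Sham_GH. For growth hormone at day 3 they were -0.15 to 0.25 for *Osmr*, -0.16 to 0.24 for *Cntf*, -0.07 to 0.19 for *Tnfrsf1a* and -0.03 to 0.26 for *Tgfb1*. For growth hormone at day 10 they were -0.05 to 0.10 for *Il6st*, -0.06 to 0.05 for *Stat3*, -0.09 to 0.35 for *Socs3* and -0.03 to 0.40 for *Cntf*. In Sham_GH against Sham they were -0.11 to 0.01 for *Il6st*, -0.10 to 0.05 for *Stat3*, -0.19 to 0.16 for *Cntf* and -0.13 to 0.09 for *Tgfb1*, and in the hippocampus -0.16 to 0.06 for *Il6st* and -0.12 to 0.12 for *Stat3*.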
